A study of Saccharomyces cerevisiae with 18 samples.

Results

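The 8 genes described here serve thiamine uptake, thiamine synthesis or thiamine use in budding yeast, Saccharomyces cerevisiae, and several of them are known to be repressed when thiamine is plentiful. They were chosen by name with measured values in view: THI7 (YLR237W) had been seen with more BY than RM reads, and PHO3 (YBR092C) with a steady loss of reads over time. The other members are THI72 (YOR192C), THI4 (YGR144W), THI6 (YPL214C), THI20 (YOL055C), THI80 (YOR143C) and PDC5 (YLR134W). Of the 8 genes, 7 held at least 1 single-nucleotide variant (SNV) at which a read could be assigned to a parent, in 7 of the 3974 transcript features with counts. THI4 held none and has no value here. Because the higher BY reads of THI7 at 0 min and the loss of PHO3 over time chose these genes, both are given as descriptions, with no test.

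The data came from 1 diploid hybrid of the strains BY4716 (BY) and RM11_1a (RM), grown in rich medium with glucose (YEPD) at 24 °C and brought to 37 °C by adding hot medium. As known of the study and not given in the labels, the hybrid carries rpb1-1, a mutation in RNA polymerase II that blocks transcription at the higher temperature, so that the loss of an mRNA can be followed. Poly(A) RNA was sequenced from 3 independent cultures, called replicates 1 to 3, at the shift (0 min) and then at 6, 12, 18, 24 and finally 42 min. All libraries share this hybrid genotype and the shift. The 6 libraries of a culture are aliquots of it and not independent cultures.

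The 18 libraries held 13626796 reads assigned to a parent (allelic reads). Library totals ran from 439453 to 1180513, except for the library of 18 min replicate 3 with 74320, and BY reads made up 49.4% to 49.6% of each library. Abundance is given as CPM, the count scaled to the same number of allelic reads in each library, which is a share of the RNA pool and not an amount per cell. The fitted abundance changes were scaled by TMM factors as well, so they differ from changes in CPM. In these bulk samples, fewer cells with a given mRNA and less of that mRNA per cell cannot be told apart. Reads at SNVs depend on how many SNVs a gene has, so levels are compared between times and alleles of a gene and not between genes.

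Thiamine diphosphate, the active form of vitamin B1, is the cofactor of enzymes that cleave or join carbon bonds next to a carbonyl group, such as pyruvate decarboxylase. Yeast takes thiamine up through a plasma membrane transporter or builds it from a pyrimidine and a thiazole part, and then adds the diphosphate. When thiamine is plentiful, the transporter and synthesis genes are repressed, under the control of the regulators Thi2, Thi3 and Pdc2.

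THI7 encodes the main plasma membrane transporter of thiamine. It lies on chromosome XII from 612367 to 614163 on the plus strand (reference R64, the same assembly as sacCer3), as 1 coding part with no intron. Its relative THI72, a low-affinity transporter, lies on chromosome XV from 698768 to 700567 on the minus strand and was 84.4% identical to it over 1791 aligned bp. The longest stretch that both coding sequences share is shown because a read of 50 bases that falls wholly inside it cannot be given to a copy. It spans 74 bases, at chrXII:613837-613910 in THI7 and on the minus strand at chrXV:699024-699097 in THI72 (5′ to 3′ on the coding strand).
THI7 and THI72: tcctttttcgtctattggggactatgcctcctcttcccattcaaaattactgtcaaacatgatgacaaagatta
Of the 1748 windows of 50 bases in THI7, 28 (1.60%) occurred elsewhere in the genome. The remaining windows were unique to it.

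THI7 fell to 31.7% of its starting share within 12 min and stood at 76.0% of it at 42 min. In replicates 1, 2 and 3, its CPM was 290, 295 and 377 at 0 min, 171, 196 and 219 at 6 min and 92.6, 128 and 84.2 at 12 min. Later its CPM was 119, 73.2 and 175 at 18 min, 156, 139 and 142 at 24 min and 267, 260 and 204 at 42 min. The 3 libraries at 12 min lay below all those at 0 and at 42 min, and the libraries at 42 min lay below those at 0 min. The means were 321 ± 48.9 (SD, n = 3) at 0 min, 102 ± 23.2 at 12 min and 244 ± 34.4 at 42 min. At 18 min the 3 libraries spread widely, and replicate 3, the shallow library, rested on 13 THI7 reads (9 BY and 4 RM).

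By edgeR's quasi-likelihood F-test with Benjamini-Hochberg adjustment over all features, THI7 fell by 1.42 on the log2 scale at 12 against 0 min (SE 0.18, adjusted p = 1.80e-06). From 12 to 42 min it rose by 1.34 (SE 0.18, adjusted p = 1.56e-05), a comparison added after this course had been seen. At 42 against 0 min its change was -0.09 (SE 0.16, adjusted p = 0.630), and it became -0.41 (adjusted p = 0.0350) when library totals alone were the scale. A fall by 12 min followed by a rise to 42 min was called for 47 of 2840 features (1.65%), THI7 among them. Of the 761 features lower at 12 min, these were 6.18%. In each of these comparisons the change in a share of the pool was measured, and new synthesis was not.

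**Figure D1:**
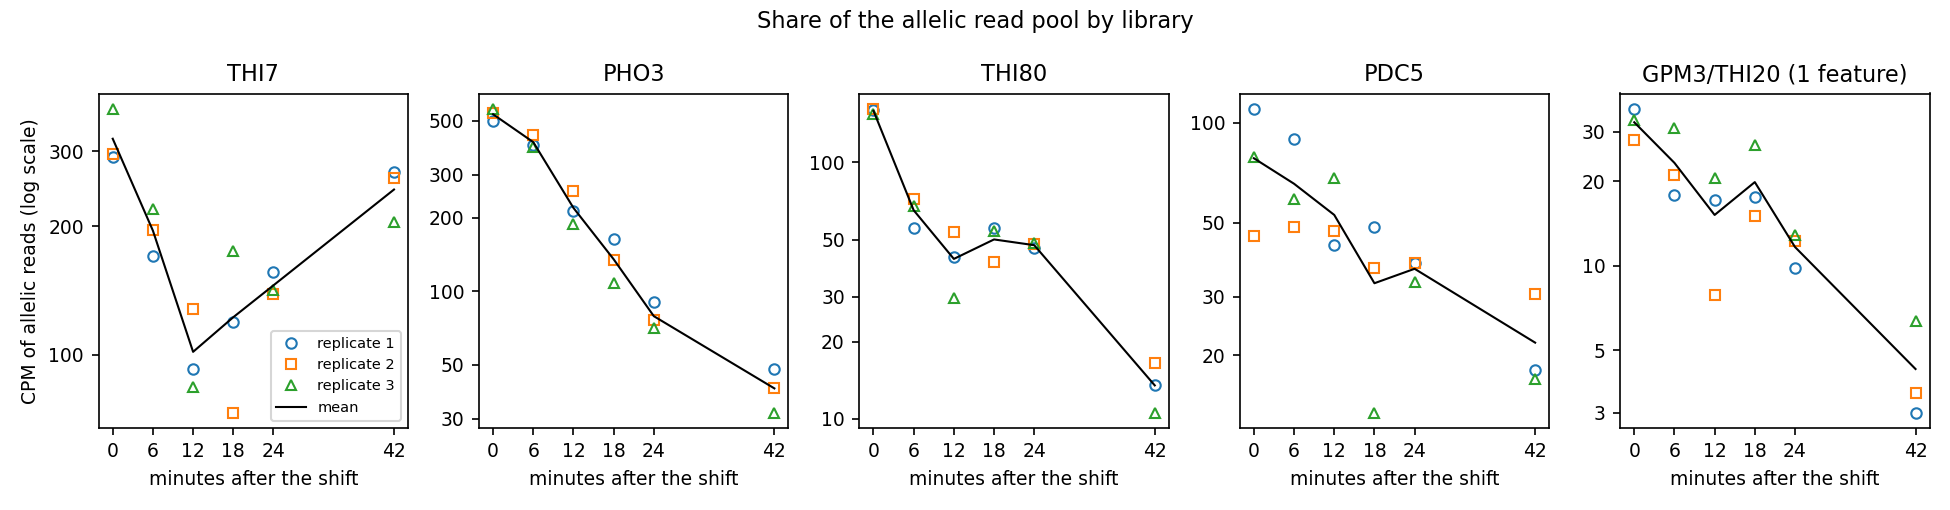
Abundance of 5 features over time, as CPM of allelic reads on a log scale that differs between panels, against minutes after the shift; each point is 1 library and the line is the mean of 3 cultures. THI7 dropped to a mean of 102 CPM at 12 min and reached 244 CPM at 42 min, while PHO3 went from 530 to 39.9 CPM and THI80 from 159 to 13.5 CPM without such a return.

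The BY allele gave most THI7 reads at every time. Over all libraries, 2137 of 2753 allelic reads at 26 SNVs were BY reads, or 77.6% (95% Wilson interval 76.0 to 79.1%). At 0 min, replicate 1 had 155 BY and 45 RM reads, replicate 2 had 201 and 83, and replicate 3 had 340 and 105, so that BY was the higher in each of them. The fitted difference at 0 min was 1.58 on the log2 scale (SE 0.10), or 2.98-fold, given as a description. As THI7 was chosen for this difference, its rank of 20th highest among the 3015 features tested describes it and is no test. The features beside THI7 had BY shares of 41.7% (EST1), 47.6% (TOP3/YLR235C/YLR236C), 49.6% (FAR10/LIP2) and 51.0% (VPS34).

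The excess of BY reads was found at nearly all SNVs of THI7. Of the 26 SNVs, 25 had more BY than RM reads, and the exception had 9 reads. Because THI7 was chosen for its BY reads, this count over SNVs is a description and no test. Among the 15 SNVs with at least 50 reads, the BY share was between 70.4% and 87.2%, with the highest value at the SNV with the most reads (335). Reads can be counted at several SNVs, so the SNVs are not independent and an interval on their summed reads is too narrow.

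The BY share of THI7 was highest at 6 min. In replicates 1, 2 and 3 it was 77.5%, 70.8% and 76.4% at 0 min and 85.2%, 83.9% and 83.7% at 6 min, so each library at 6 min was above each at 0 min. It was 74.8%, 68.5% and 72.7% at 24 min and 79.2%, 83.3% and 77.2% at 42 min, where the range overlapped that at 0 min. By allele, BY reads went from 240 ± 42.0 CPM (SD, n = 3) at 0 min to 164 ± 19.0 at 6 min, or 68.4% of the start, and RM reads from 80.1 ± 12.9 to 30.9 ± 5.23, or 38.5% of the start. By 12 min both stood near the same fraction of their start, 32.3% for BY and 29.8% for RM. At 42 min BY reads were back at 81.2% and RM reads at 60.6% of the start.

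The BY to RM ratio of THI7 rose by 0.83 on the log2 scale from 0 to 6 min (SE 0.20, edgeR adjusted p = 0.00908), a comparison chosen after the shares had been seen. Of the 2838 features, 19 (0.669%) passed this test, and of the 4 members tested THI7 alone did. The call was lost with DESeq2 (adjusted p = 0.410), without replicate 1 (0.0593) and without replicate 2 (0.323), at changes of 0.84, 0.84 and 0.70, and the adjusted p ranged from 0.00755 to 0.410 over 9 alternatives. A straight line over all 42 min gave 0.10 (SE 0.20, adjusted p = 0.887), and -0.30 (adjusted p = 0.704) without the 0 min libraries.

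**Figure D2:**
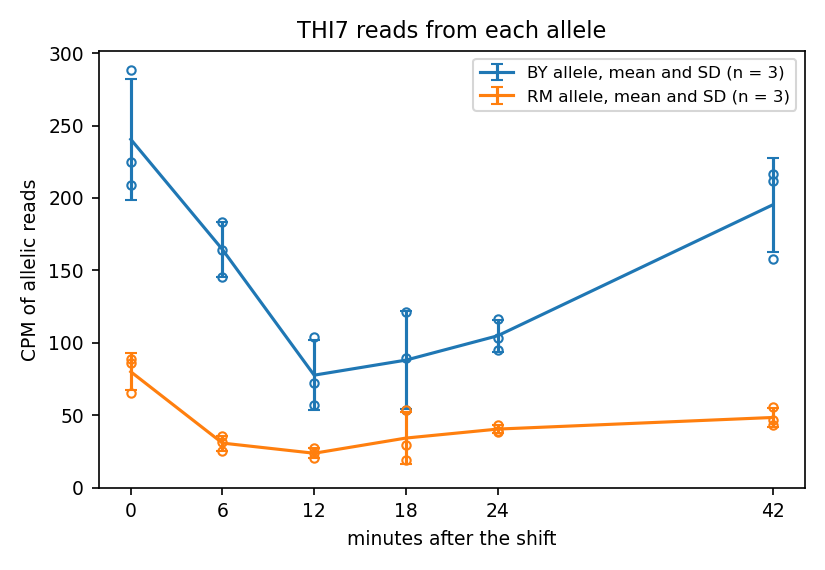
CPM of THI7 reads from the BY allele (blue) and the RM allele (orange) against minutes after the shift; points are libraries, and lines and bars are the mean and SD of 3 cultures. BY reads lay above RM reads at each time, with means of 240 and 80.1 CPM at 0 min, 77.7 and 23.9 CPM at 12 min and 195 and 48.5 CPM at 42 min.

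THI72 had 1 SNV and 26 allelic reads in all, from 0 to 4 per library, and was not tested. BY reads made up 57.7% of them (95% Wilson interval 38.9 to 74.5%). A difference between alleles or times was not detectable at this depth. Of its 1751 windows of 50 bases, 82 (4.68%) occurred elsewhere in the genome.

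PHO3 encodes a periplasmic acid phosphatase that removes phosphate from thiamine phosphates, which frees thiamine for uptake. It lies on chromosome II from 427698 to 429101 on the minus strand, next to PHO5, the phosphate-repressed acid phosphatase, which was 86.7% identical to it over 1404 aligned bp. Their longest shared stretch is shown for the same reason as above. It spans 98 bases, both copies on the minus strand, at chrII:428707-428804 in PHO3 and chrII:430557-430654 in PHO5.
PHO3 and PHO5: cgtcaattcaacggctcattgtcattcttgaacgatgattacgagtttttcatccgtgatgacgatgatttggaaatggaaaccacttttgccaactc
In PHO3, 118 of 1355 windows of 50 bases (8.71%) occurred elsewhere. PHO5 had a BY share of 49.3% over its 367 reads.

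PHO3 was lower at each later time than at the one before in all 3 cultures. In replicates 1, 2 and 3, its CPM was 497, 535 and 559 at 0 min, 398, 435 and 390 at 6 min and 213, 256 and 189 at 12 min. It was then 164, 133 and 108 at 18 min, 89.9, 76.0 and 70.9 at 24 min and 48.0, 40.0 and 31.8 at 42 min. No 2 times overlapped, though the value of 18 min replicate 3 rested on 8 PHO3 reads. At 42 min 7.53% of the starting CPM was left. The fitted differences were -1.05 (SE 0.12) at 12 against 0 min and -3.44 (SE 0.15) at 42 against 0 min on the log2 scale, given as descriptions. The last became -3.75 with library totals alone as the scale, which is that of CPM. At 42 against 12 min its difference of -2.39 was the 17th lowest of 2840 features. It was the 330th lowest at 12 against 0 min and the 96th lowest at 42 against 0 min. PHO3 was chosen for this loss, so these ranks describe it and are no test.

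PHO3 had more BY than RM reads, by less than THI7. Over all libraries, 2038 of 3531 reads at 20 SNVs were BY reads, or 57.7% (95% Wilson interval 56.1 to 59.3%). At 0 min the BY share was 55.4%, 53.0% and 56.7% in replicates 1, 2 and 3, above 50% in each. The difference at 0 min was 0.30 on the log2 scale (SE 0.07, edgeR adjusted p = 0.00474). This call was lost with DESeq2 (adjusted p = 0.383), without replicate 3 (0.123), without the library terms (0.0933) and at the deepest SNV alone (0.205), and the adjusted p ranged from 1.93e-05 to 0.383 over 10 alternatives.

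The BY share of PHO3 was 62.9%, 62.3% and 71.1% at 12 min, 57.8%, 57.4% and 71.2% at 24 min and 62.5%, 76.5% and 60.0% at 42 min. The libraries at 12 and at 42 min all lay above those at 0 min, and the library of 18 min replicate 3, with 8 PHO3 reads, had the lowest share, 37.5%. The change of its BY to RM ratio over 42 min was 0.70 (SE 0.25, unadjusted p = 0.00562, edgeR adjusted p = 0.0769) and did not pass the threshold of 0.05. The adjusted p was between 0.0590 and 0.611 over 12 alternatives, with the change between 0.47 and 1.25.

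**Figure D3:**
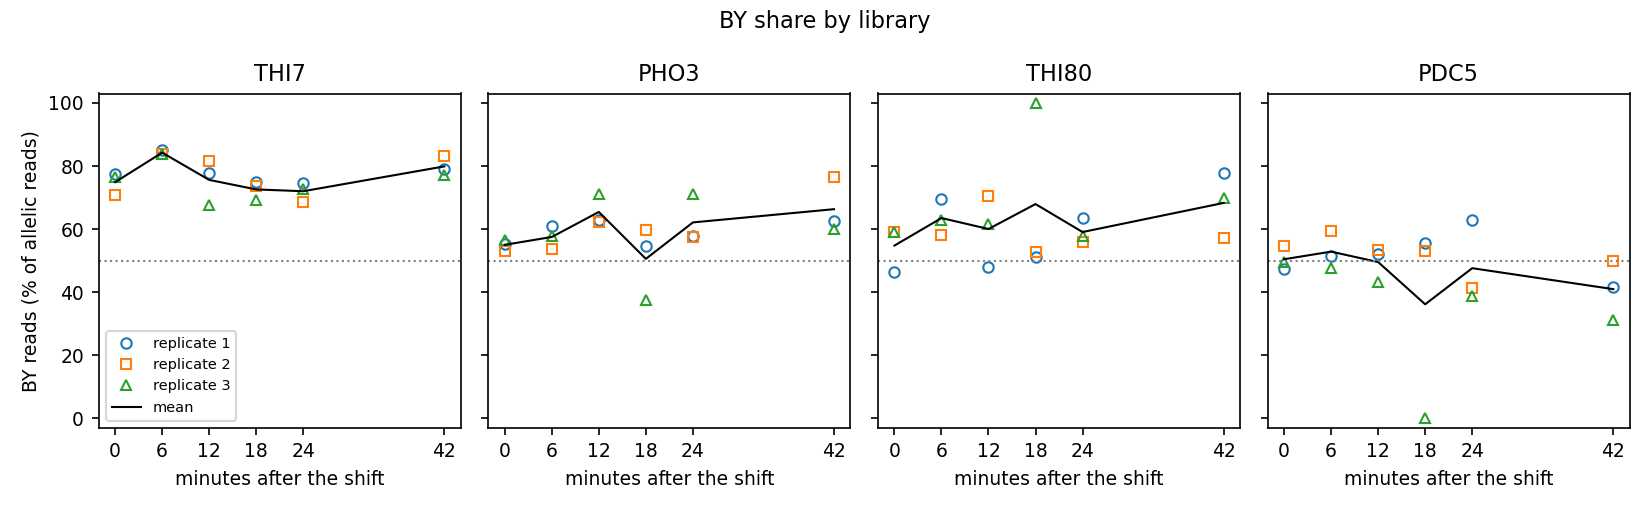
BY reads as a percentage of allelic reads of 4 members against minutes after the shift; each point is 1 library, the line is the mean of 3 cultures and the dotted line marks 50%. THI7 lay above 67% in each library. PDC5 ran from 31.25% (42 min replicate 3) to 63.0% (24 min replicate 1), apart from 0% of 1 read at 18 min replicate 3. The points of 18 min replicate 3 rest on few reads.

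THI80 encodes thiamine pyrophosphokinase, which makes thiamine diphosphate from thiamine. It lies on chromosome XV from 601383 to 602342 on the minus strand, and none of its 50-base windows occurred elsewhere. It fell in steps. Its CPM in replicates 1, 2 and 3 was 160, 162 and 155 at 0 min, 55.4, 72.3 and 67.6 at 6 min and 42.9, 53.7 and 29.6 at 12 min. It stayed between 40.9 and 55.5 CPM in the 6 libraries at 18 and 24 min, of which 18 min replicate 3 rested on 4 THI80 reads. At 42 min it was 13.5, 16.5 and 10.6. All libraries at 42 min lay below those of every other time. THI80 fell by 1.66 on the log2 scale at 12 against 0 min (SE 0.18, edgeR adjusted p = 1.94e-07), and the log2 changes were -3.23 at 42 against 0 min (SE 0.20, adjusted p = 4.60e-11) and -1.57 at 42 against 12 min (SE 0.25, adjusted p = 6.17e-05).

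Of the 923 THI80 reads at 11 SNVs, 58.5% were BY reads (95% Wilson interval 55.3 to 61.6%). At 0 min the BY share was 46.4%, 59.0% and 59.0% in replicates 1, 2 and 3, so replicate 1 lay on the other side of 50%. The difference at 0 min was 0.34 (SE 0.15, edgeR adjusted p = 0.103) and did not pass, and it passed without replicate 1 (0.52, adjusted p = 0.0246). With the reads of all 6 times summed per culture, BY was higher for THI80 by 0.49 (SE 0.09, adjusted p = 9.85e-04) and for PHO3 by 0.45 (SE 0.05, adjusted p = 1.93e-05). In that setting 1470 of 3504 features were called. The ratio of THI80 changed by 0.35 over 42 min (SE 0.39, adjusted p = 0.744).

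PDC5 encodes a minor pyruvate decarboxylase, an enzyme that uses thiamine diphosphate. It lies on chromosome XII from 410723 to 412414 on the plus strand. It was 87.7% identical over 1701 aligned bp to PDC1, the major pyruvate decarboxylase gene, and their longest shared stretch, on the plus strand at chrXII:411068-411132 in PDC5 and the minus strand at chrXII:233672-233736 in PDC1, spans 65 bases.
PDC5 and PDC1: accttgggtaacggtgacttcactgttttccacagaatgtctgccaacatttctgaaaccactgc
Few stretches of PDC5 are of this kind, with 16 of 1643 windows (0.974%) found elsewhere.

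PDC5 was lowest at 42 min. Its mean CPM was 78.2, 65.6 and 52.8 at 0, 6 and 12 min and 32.9, 36.4 and 21.8 at 18, 24 and 42 min. In the library of 18 min replicate 3 it had 1 read. By replicate, the CPM of PDC5 was 110, 45.7 and 78.8 in replicates 1, 2 and 3 at 0 min. It was 42.9, 47.4 and 68.3 at 12 min and 18.0, 30.6 and 16.9 at 42 min. The libraries at 0 and 12 min overlapped, and those at 42 min lay below both. At 0 min replicate 2 held less than the other cultures, and in it 66.9% of the starting CPM was left at 42 min against 16.3% and 21.5% in replicates 1 and 3. PDC5 fell by 1.49 on the log2 scale at 42 against 0 min (SE 0.33, edgeR adjusted p = 4.29e-04) and by 1.14 at 42 against 12 min (SE 0.37, adjusted p = 0.0164), the last lost without replicate 3 (-0.79, adjusted p = 0.221) and at the deepest SNV alone (-0.88, adjusted p = 0.115). At 12 against 0 min its change was -0.34 (SE 0.31, adjusted p = 0.354). BY reads made up 49.6% of 691 reads at 2 SNVs, with a difference at 0 min of -0.01 (SE 0.19, adjusted p = 0.970) and a ratio change over 42 min of -0.39 (SE 0.37, adjusted p = 0.694).

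The synthesis genes THI20 and THI6 were each counted in 1 feature with an overlapping neighbour, and the library kit does not mark strand, so their own reads cannot be told apart from those of GPM3 and CBP3. THI20, which encodes a kinase that phosphorylates the pyrimidine part of thiamine, shared its feature with GPM3 (3 SNVs, 245 reads, 48.6% BY). The CPM of GPM3/THI20 was 36.3, 28.0 and 33.0 at 0 min and 3.003, 3.53 and 6.35 at 42 min in replicates 1, 2 and 3, with 2, 3 and 6 reads in these libraries at 42 min and no overlap between these times. It missed the mean of 20 reads per library needed for the test over time. With no such filter it was lower at 42 than at 0 min by a log2 change of -2.47 (SE 0.38, edgeR adjusted p = 4.75e-06) and at 12 than at 0 min by -0.89 (adjusted p = 0.0275). Its allele difference at 0 min was -0.16 (SE 0.32, adjusted p = 0.777). THI6 encodes the enzyme that joins the pyrimidine and thiazole parts. CBP3/THI6 had 1 SNV with 101 reads and a BY share of 45.5% (95% Wilson interval 36.2 to 55.2%). Without a filter its change at 42 against 0 min was 0.54 (SE 0.51, adjusted p = 0.361).

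The members are read here against all features tested. The change of the allele ratio over 42 min was called for none of 4 members (1 of 4 at an unadjusted p under 0.05) against 6.62% of features, and with DESeq2 it was called for none either. At 0 min 1 of the 4 members tested besides THI7 was called, with BY higher, against 22.4% of features called and 10.4% called with BY higher. At 42 against 0 min 2 of 3 members besides PHO3 were called, both lower, against 76.3% called and 39.0% called lower. At 12 against 0 min 2 of 3 were called lower, against 54.6% called and 26.8% called lower. At 42 against 12 min 1 of 3 was called higher against 21.9% of features, and 2 of 3 lower against 24.0%. With so few members none of these counts sets them apart from the rest.

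**Figure D4:**
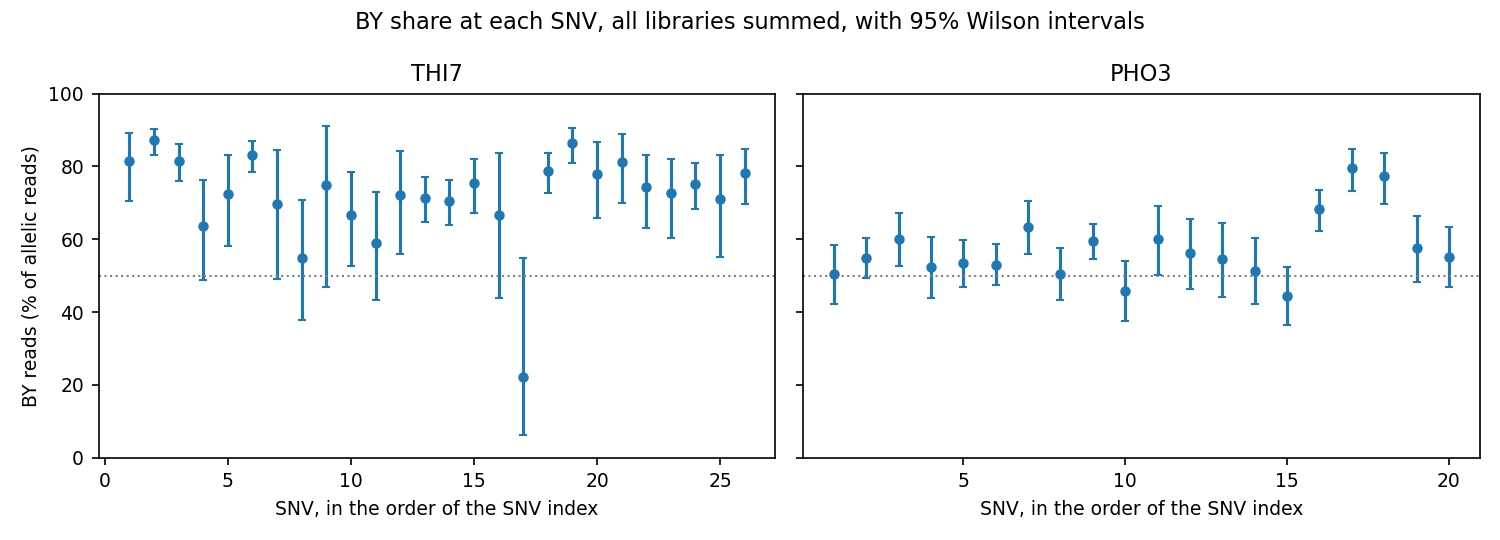
BY reads as a percentage of allelic reads at each SNV of THI7 (26 SNVs) and PHO3 (20 SNVs), in index order, with all libraries summed; bars are 95% Wilson intervals, which cover counting error only, and the dotted line marks 50%. THI7 lay above 50% at 25 SNVs, and PHO3 was highest at SNVs 16 to 18.

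At PHO3, 18 of 20 SNVs had more BY than RM reads, with the interval above 50% at 7 and below it at none. SNVs 16 to 18, singled out after their values were seen, held 74.0% BY reads of 573, against 54.6% of 2958 at the other 17. At THI80, 10 of 11 SNVs had more BY reads, with the interval above 50% at 4.

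Other genes of the pathway were few in these counts. Of 19 further genes for thiamine synthesis, uptake and regulation, 9 were alone in a feature and 3 were tested. THI3, a regulator of the thiamine genes, had BY higher at 0 min (0.65, SE 0.18, edgeR adjusted p = 0.0138) and fell by 0.44 at 42 against 0 min (adjusted p = 0.0283). NFS1, a cysteine desulfurase, had RM higher at 0 min (-0.55, SE 0.07, adjusted p = 3.20e-06), and its BY to RM ratio fell by 0.53 over 42 min (SE 0.12, adjusted p = 8.95e-04). At 12 against 0 min NFS1 fell by 0.41 (adjusted p = 3.22e-04) and PDC2, an activator of PDC genes and thiamine genes, fell by 0.54 (adjusted p = 0.0135). The median change of the 3 genes at 42 against 0 min was -0.11, against -0.05 over all features.

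Enzymes that use thiamine diphosphate went the other way from PDC5 in part. Of 10 such genes 7 were tested, and at 42 against 0 min 5 rose and 2 fell, with a median of 0.80 against -0.05 over all features. Of all features, 76.3% were called in this comparison, 37.2% as higher and 39.0% as lower. PXP1 rose by 1.56 (SE 0.22, edgeR adjusted p = 3.58e-06), ARO10, a decarboxylase of phenylpyruvate, by 1.25 (SE 0.36, adjusted p = 0.00443) and KGD1, of the oxoglutarate dehydrogenase complex, by 1.13 (SE 0.12, adjusted p = 8.23e-08). PDA1 and PDB1, the subunits of the E1 part of pyruvate dehydrogenase, rose by 0.80 and 0.48, and PDB1 no longer passed with library totals alone as the scale (0.16, adjusted p = 0.116). ILV2, the acetolactate synthase, fell by 0.48 and TKL1, the main transketolase, by 0.46. ARO10 was higher by 2.88 at 12 against 0 min (edgeR adjusted p = 5.66e-07) and fell by 1.64 from 12 to 42 min (adjusted p = 3.80e-04). From 12 to 42 min ILV2 also fell (-0.52, adjusted p = 0.00556), while KGD1 (0.63, adjusted p = 5.03e-04) and PDA1 (0.30, adjusted p = 0.0311) rose. PXP1, PDB1 and TKL1 did not pass there. None of the 7 had a called allele difference at 0 min or ratio change over 42 min with edgeR, with PDB1 and ILV2 at unadjusted p = 0.0393 and 0.0154 for the ratio change.

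PHO5 was the tested member of 3 acid phosphatase genes and fell by 1.07 at 42 against 0 min (SE 0.32, edgeR adjusted p = 0.00573). At 12 min PHO5 stood 0.20 above 0 min (adjusted p = 0.587). Of 4 permeases related to THI7, the uridine permease gene FUI1 was tested, and its log2 changes were -3.13 at 12 against 0 min (SE 0.28, adjusted p = 1.97e-08) and -2.73 at 42 against 0 min (SE 0.25, adjusted p = 8.71e-09). From 12 to 42 min FUI1 changed by 0.40 (SE 0.36, adjusted p = 0.381), beside the rise of 1.34 for THI7. FUI1 had RM higher at 0 min (-0.62, SE 0.11, adjusted p = 1.46e-04), where THI7 had BY higher.

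The genes whose course was most like that of THI7 were found among 979 features with a mean of at least 100 reads, by the root mean square difference of centred log2(CPM + 1) over the 18 libraries. They were TAT1, an amino acid permease gene (0.37), CPA1, of arginine synthesis (0.40), and ERG11, of ergosterol synthesis (0.40), against a median of 0.75 over all compared. The mean CPM of TAT1 was 1034 at 0 min, 220 at 12 min and 404 at 42 min. For PHO3 they were PLB2, a phospholipase B gene (0.29), PGM1, a phosphoglucomutase gene (0.30), and TCB2, a tricalbin gene (0.35), against a median of 1.31. Likeness here describes the same libraries and is no test.

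Puf proteins bind short motifs, mostly after the stop codon, and are known to speed the decay of many yeast mRNAs. The 200 bases after the stop codon of each member were searched on the sense strand for TGTANATA (Puf3), TGTANANTA (Puf4) and the Puf5 motif, which has 1 more free base after TGTA than that of Puf4. These letters were present after 14.0%, 7.37% and 6.53% of 6021 genes. None of the 8 members held the Puf3 letters, and PHO3 alone held those of Puf4 and Puf5. The PHO3 matches are shown because they were the only ones found among the members. The motif is in capitals, 5′ to 3′ on the minus strand of chromosome II.
PHO3 Puf5, 3 bases after the stop codon, chrII:427678-427697: atTGTATAAATAaataatat
PHO3 Puf5, 63 bases after the stop codon, chrII:427618-427643: ttcttttaTGTACTAGTAgggtaacg
PHO3 Puf4, 85 bases after the stop codon, chrII:427597-427621: aacgagttTGTAGATTAgcggcaga
The 3 matches did not overlap. A match of letters in the reference is a description and does not show binding. Whether the SNVs of BY and RM touch these letters was not tested, nor was any link between the letters and the loss of PHO3.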

How the data were processed

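The authors deposited raw counts of reads per SNV and allele. Per the file headers, reads were aligned separately to the BY and RM genomes, duplicates were removed, and counts were taken at SNVs within transcript features with UTRs, overlapping genes being merged and poorly mapping sites masked. The submitters' processing notes name BWA 0.5.9, Picard 1.43 and the build sacCer3. Per the labels' protocols, all libraries were sequenced in 1 lane.

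Counts of the SNVs of a feature (30497 SNVs in the table of the whole series) were summed per allele and library. Features averaging 20 or more reads in a library and, for allele tests at least 2 reads of each allele, entered the quasi-likelihood F-test of edgeR 4.0.16 in R 4.3.3, with p adjusted after Benjamini and Hochberg over all features with a threshold of 0.05. The ratio change used 36 allele columns with a term per library, allele, and allele by minutes. The difference at 0 min used 6 columns and the library and allele terms. For abundance, both alleles were summed and scaled by TMM, and each time was a level of its own. The SE is the absolute log2 change divided by the root of F. The named genes are the members, the tested genes of the lists, and the 3 features most like THI7 and PHO3. The members and lists were chosen with earlier results of these data known. Shared stretches were found with blastn 2.17.0 and exact matching in the R64 reference.

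Replicate numbers mark aliquots of 1 culture, so they pair the libraries. Their departures from each time's mean had a median correlation of 0.229 between libraries of the same number (0.00954 to 0.688, 45 pairs) and -0.105 between other numbers. Intervals cover counting error only, since reads carry no molecular identifiers, and leave out the spread between cultures. For features with several SNVs they are too narrow even for counting error, since a read can be counted at more than 1 SNV. No pair of libraries of the same time agreed within sampling noise (lowest chi-square per degree of freedom 1.35). Alternatives were other SNV sets, filters, scalings, DESeq2 1.42.0, a replicate block and libraries left out. The code was tested on simulated data.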

Additional observations from a re-analysis of the deposited data

How the results depend on the processing

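No member value that had itself passed its test changed sign under any alternative. Some values that had not passed did, such as the ratio changes of THI7 and THI80 over 42 min. The count of members called at 0 min was 1 and became 0 with the deepest SNV only, 0 with DESeq2 and 0 with no replicate block. It was 2 with all times summed per culture, where 1470 of 3504 features tested were called. The count ranged from 0 to 2 with a replicate left out, and it was 2 without replicate 1, where 536 of 3081 features were called. With the deepest SNV only, THI7 and THI80 did not reach the filter for abundance and PDC5 was the 1 member tested besides PHO3, and the count fell from 2 to 1 at 42 against 0 min, from 2 to 0 at 12 against 0 min and from 3 to 0 at 42 against 12 min, where PDC5 was tested and no longer passed (-0.88, adjusted p = 0.115). The added count at 6 against 0 min, 1, became 0 with DESeq2 and ranged from 0 to 1 with a replicate left out. With the deepest SNV only it was 0 of 2 members tested, but THI7, the member called, was not tested there. The replicate block left 0 members called for the ratio change over 42 min and 2 at 42 against 0 min, and it changed no call of a member there; at 0 min PHO3 was called with the library terms and not without.

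Over all features, the 188 ratio changes called became 118 with DESeq2, 42 with the deepest SNV only and 86 without the 0 min libraries, and ranged from 97 to 129 with a replicate left out. The 674 differences called at 0 min became 216 with DESeq2, 270 with no replicate block, 356 with the deepest SNV only and 1470 with all times summed, and ranged from 400 to 536 with a replicate left out. The 19 changes called at 6 against 0 min became 7 with DESeq2 and 3 with the deepest SNV only, and ranged from 7 to 17. The 1550, 2166 and 1306 abundance calls at 12 against 0, 42 against 0 and 42 against 12 min became 916, 1439 and 753 with the deepest SNV only, where 2062 features were tested.

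With library totals alone as the scale, the median of all features moved by -0.22, -0.32 and -0.10 on the log2 scale at 12 against 0, 42 against 0 and 42 against 12 min, and of the features called 32.9% and 34.9% were higher at 12 and at 42 against 0 min, instead of 50.9% and 48.8%. THI6, THI72 and GPM3/THI20 are limited by depth.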
